A study of Homo sapiens with 10 samples.

Results

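The HOX genes are the 39 protein-coding genes of the HOXA, HOXB, HOXC and HOXD clusters. They were chosen by symbol (HOX, a cluster letter and a number) with at least 1 transcript typed as protein coding, out of 60168 genes quantified by polyA RNA-seq in MCF10A, an immortalized, non-tumorigenic human mammary epithelial cell line. HOX proteins are homeodomain transcription factors that bind DNA together with PBX and MEIS partners. In the embryo, genes at the low-numbered end of a cluster are active toward the head and those at the high-numbered end toward the tail, and adult epithelia keep a cell-type-specific part of this pattern. Repression of silent HOX clusters by Polycomb complexes and their activation by retinoic acid are textbook examples of chromatin control. Several HOX genes, among them HOXA9, HOXB9 and HOXD9, act in growth of the mammary gland.

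MCF10A cells were transduced with an empty vector (control, libraries A to D), with a vector that overexpresses TRAM2 (MCF10A-TRAM2, libraries A to D) or with a vector for activated YAP (MCF10A-YAP5SA, libraries A and B), and all were selected with antibiotic and collected before confluence. YAP is the coactivator that the Hippo kinases hold in check, and YAP5SA lacks serines that these kinases phosphorylate. TRAM2 is a protein of the endoplasmic reticulum involved in the making of secreted proteins, and the study asked how much of the YAP programme it carries. YAP5SA was expressed from a lentiviral backbone with blasticidin resistance, and the TRAM2 open reading frame from a CMV-driven vector with puromycin resistance, so the vectors and selections of the groups differ. Which backbone the empty vector was is not stated in the labels. The series design names 3 biological replicates per condition, while the labels name 4, 4 and 2 libraries. By the run number, a later sequencing run held control C and D with MCF10A-TRAM2 C and D and no MCF10A-YAP5SA library, all others belonging to the first run.

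Each library held between 8489854 and 16314438 estimated counts, of which 1249.2 to 2267.7 fell on HOX genes. Over genes with whole counts, the counts of control A and C agreed within sampling noise, as did those of B and D (chi-square per degree of freedom 1.00 in both pairs, against 1.16 to 1.24 between the other control pairs). Over all genes, whose counts are estimated, the value was 1.23 and 1.22 in these pairs and 1.42 to 1.49 in the others. Each of these pairs was summed and counted as 1 sample. The comparisons therefore rest on 2 control, 4 MCF10A-TRAM2 and 2 MCF10A-YAP5SA samples. Nothing in the labels ties the samples to separate cultures, so p-values measure the spread between these samples, which may be technical. TRAM2 itself was at 28.6 ± 0.35 CPM (counts scaled to library size; SD, n = 2) in control, 428 ± 150 (n = 4) in MCF10A-TRAM2 and 245 ± 3.6 (n = 2) in MCF10A-YAP5SA. YAP1 was at 187 ± 0.096, 187 ± 6.4 and 340 ± 3.5 CPM in the same order. All 14 mammary epithelial markers examined were expressed. In MCF10A-YAP5SA 3 of them were higher and 6 were lower than in control, beside 15.3% and 14.1% of all tested genes. CDH3 (log2 fold change -2.31), CDH1 (-1.97) and KRT5 (-0.94) were among the lower and KRT8 (0.96) among the higher. Of 10 fibroblast and 6 leukocyte markers 2 each passed the filter, and THY1, TCF21 and CD3E had no counts. The fibroblast markers summed to 72.5 to 76.7 CPM in control, 80.2 to 95.9 in MCF10A-TRAM2 and 93.3 to 97.9 in MCF10A-YAP5SA, and the leukocyte markers to 40.6 to 40.9, 36.6 to 47.9 and 49.6 to 55.4 CPM. Most of the fibroblast sum was FAP, at 70.8 CPM in control and 93.9 CPM in MCF10A-YAP5SA. Most of the leukocyte sum was CD68, at 38.3 and 52.1 CPM in the same order. COL1A1 (-2.09) and CD14 (-3.63), both at low levels, were lower in MCF10A-YAP5SA. Of 5 markers of the embryonic kidney cell line used to package virus, NEFL, NEFM and LIN28B had no counts, while GFRA1 was at 4.37 and 4.57 CPM in MCF10A-YAP5SA and at 0.0539 CPM or below in every other sample. The remaining marker, DUSP9, was at 0.0915 and 0.162 CPM in control, 0.0 to 0.363 CPM in MCF10A-TRAM2 and 0.0 and 0.0774 CPM in MCF10A-YAP5SA. The part of these differences in the results below was not tested.

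Cells with the empty vector transcribed genes of the HOXA, HOXB and HOXC clusters and none of the HOXD cluster. All 9 HOXD genes, HOXB1 and HOXB13 had no counts in any library. A count of 0 among the 125384644 counts of all 8 samples allows a level of up to 0.0239 CPM (3 counts, a limit that covers counting error only). In coordinates of GRCh37 the HOXA cluster lies on chr7:27132612-27239710, HOXB on chr17:46605888-46806112, HOXC on chr12:54332615-54449814 and the silent HOXD cluster on chr2:176957449-177055635. Of the 39 genes, 21 passed the filter on low counts (0.671 CPM or more in at least 2 samples) and were tested, namely 9 of 11 HOXA, 5 of 10 HOXB, 7 of 9 HOXC and 0 of 9 HOXD genes. The other 7 with any count were HOXA6, HOXA13, HOXB4, HOXB5, HOXB8, HOXC10 and HOXC12. HOXB7, HOXC4 and HOXC5 passed the filter only through MCF10A-YAP5SA, so their difference from control was part of why they were tested.

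Levels of different genes were compared per length, as TPM, a level scaled to transcript length and library size. Over all transcripts of a gene, HOXC9 led in control with 22.7 ± 0.47 TPM (SD, n = 2), followed by HOXA7 with 14.4 ± 0.54 TPM. HOXA3 (8.31 ± 1.7 TPM) and HOXA5 (7.83 ± 0.54 TPM) came next and lay within each other's spread. HOXA9 stood at 4.25 ± 0.24 TPM, ahead of HOXA4 (2.50 ± 0.15 TPM) and HOXC13 (2.40 ± 0.13 TPM), which again overlapped. From HOXA10 (2.07 TPM) through HOXC6, HOXB3, HOXA2, HOXC8 and HOXC11 to HOXB2 (0.933 TPM) the levels declined in small steps, several of them within the spread of the samples. HOXB6, HOXA11, HOXB9, HOXC5 and HOXC4 were at 0.255 TPM or less, and HOXB7 was at 0. Counting protein-coding transcripts alone changed this order, because most of the HOXC9 and HOXA7 TPM lay in short transcripts typed as lncRNA. On that scale HOXA3 led with 8.0 ± 1.6 TPM, ahead of HOXA5 (3.21 ± 0.24 TPM), HOXC9 (2.63 ± 0.75 TPM) and HOXA4, and HOXA7 was at 1.95 ± 0.13 TPM.

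MCF10A-YAP5SA cells drew more of their HOX transcripts from the HOXB and HOXC clusters, and fewer from HOXA, than control cells did. The summed level of the HOXA genes was 78.5 and 81.9 CPM in the 2 control samples and 51.8 and 52.7 CPM in the 2 MCF10A-YAP5SA samples. The HOXB genes summed to 12.8 and 10.5 CPM in control and to 27.8 and 29.1 CPM in MCF10A-YAP5SA. The HOXC genes summed to 50.4 CPM in both control samples and to 73.8 and 71.4 CPM in MCF10A-YAP5SA. In each of these clusters the control and MCF10A-YAP5SA samples did not overlap. The ratio of the means of MCF10A-YAP5SA to control was 0.652 for HOXA, 2.44 for HOXB and 1.44 for HOXC. Summed over all HOX genes the level moved from 142 ± 0.77 to 153 ± 0.17 CPM, a ratio of 1.08. The HOXA share of that sum went from 56.4% to 34.1%, the HOXB share from 8.20% to 18.6% and the HOXC share from 35.4% to 47.3%. These are bulk samples, in which fewer cells of a type and less RNA per cell cannot be told apart.

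MCF10A-TRAM2 samples stayed close to control. Their HOXA sums were 75.3, 67.4, 74.7 and 75.6 CPM, all below the 2 control samples, with a ratio of means of 0.913. Their HOXB sums lay between 11.7 and 12.8 CPM and their HOXC sums between 46.9 and 51.2 CPM, both ranges overlapping control. The HOXA, HOXB and HOXC shares in MCF10A-TRAM2 were 54.3%, 9.05% and 36.6%.

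**Figure D1:**
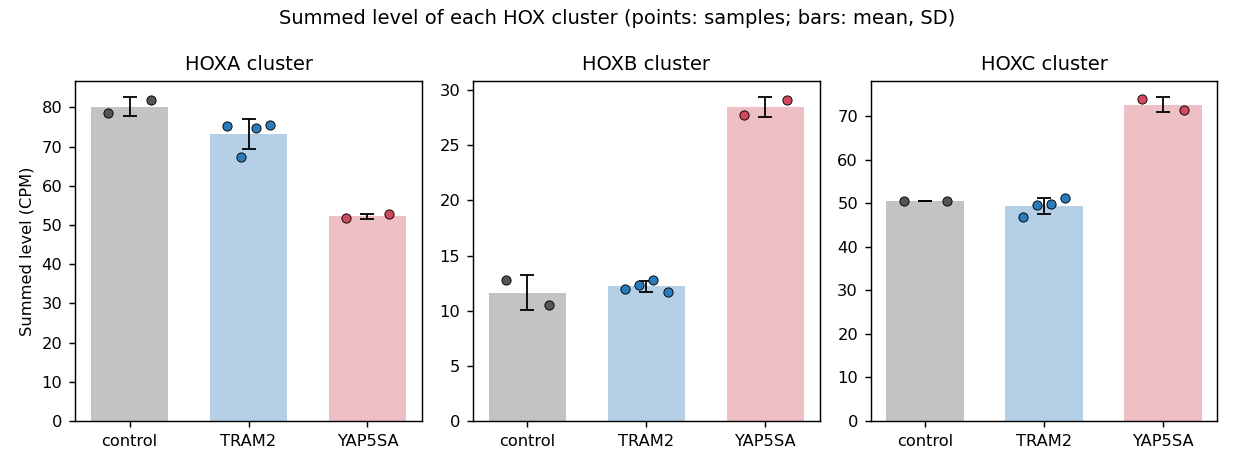
Summed level of the HOXA, HOXB and HOXC genes in CPM (vertical axes from 0) in control (n = 2), MCF10A-TRAM2 (n = 4) and MCF10A-YAP5SA (n = 2), with points for samples, bars for means and error bars for SD. The MCF10A-YAP5SA points sit below control for HOXA (51.8 and 52.7 against 78.5 and 81.9 CPM) and above control for HOXB and HOXC.

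Which HOX genes carried the shift was tested gene by gene with edgeR's quasi-likelihood test and Benjamini-Hochberg adjustment over all 15768 genes tested (adjusted p below). Called genes passed both an adjusted p of 0.05 and a log2 fold change of more than 0.5 in size. In MCF10A-YAP5SA against control 14 of the 21 tested HOX genes were called, 9 higher and 5 lower, where 29.4% of all tested genes were called (15.3% higher, 14.1% lower). Without the 3 genes that passed the filter only through MCF10A-YAP5SA, 12 of 18 were called, 7 higher and 5 lower. In HOXA 5 genes were lower, while in HOXB 4 were higher and in HOXC 4 were higher, with 0 lower in both. The median log2 fold change was -0.91 over the 9 HOXA genes, 1.85 over the 5 HOXB genes and 0.62 over the 7 HOXC genes, beside -0.01 over all genes tested. The HOXB median is the value of HOXB9, and placing HOXB7 at its lower bound (given with its counts below) leaves it as it is. Without the 3 genes that passed the filter only through MCF10A-YAP5SA, the median was 1.61 over 4 HOXB genes and 0.57 over 5 HOXC genes. Samples of the 2 groups did not overlap for 18 of the 21 genes, where 76.7% of all tested genes did not overlap.

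**Figure D2:**
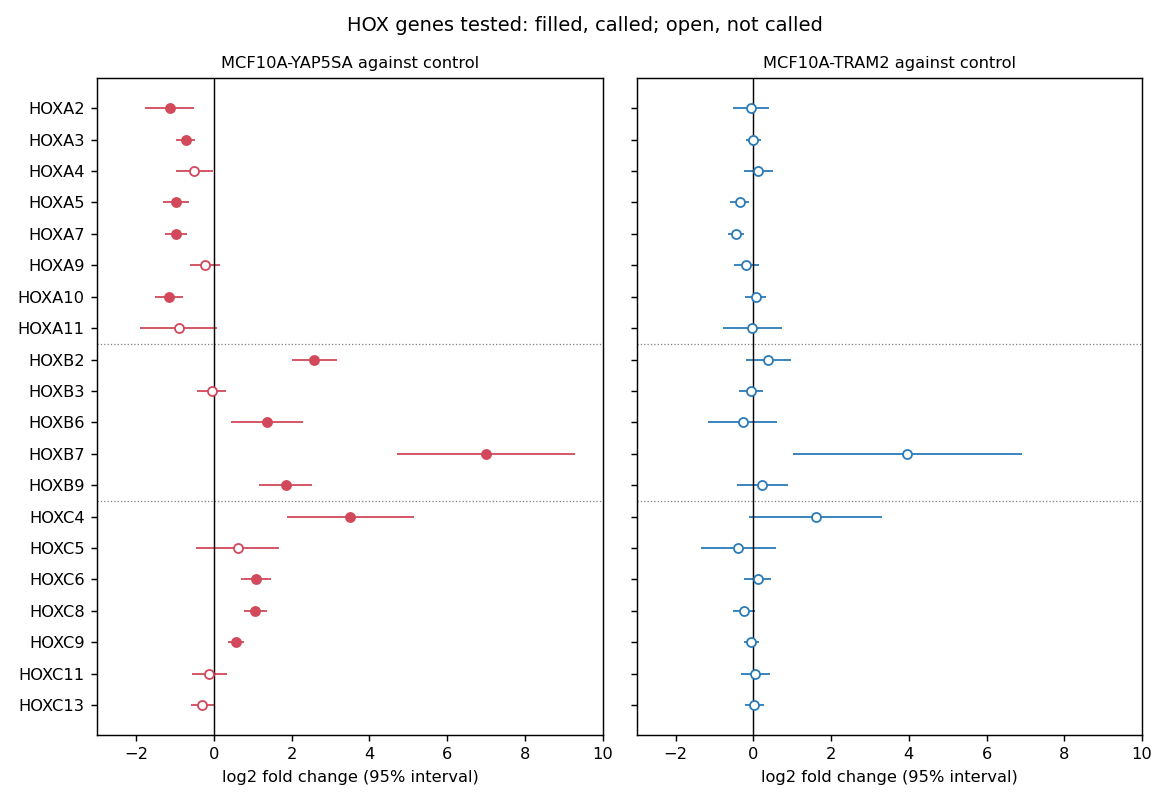
log2 fold change with its 95% interval for 20 of the 21 HOX genes tested, in MCF10A-YAP5SA against control (left) and MCF10A-TRAM2 against control (right), with filled points for genes called and open points for genes not called. In the left panel the HOXA genes drawn lie left of 0 and the HOXB and HOXC genes called lie right of 0. In the right panel all 20 points are open. The point of HOXB7, which had 0 counts in control, depends on the prior count of the fit.

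HOXA2, a regulator of the neural crest of the face, fell in MCF10A-YAP5SA. It was at 5.08 and 5.98 CPM in control and 2.52 and 2.48 CPM in MCF10A-YAP5SA, a log2 fold change of -1.14 (SE 0.29, edgeR adjusted p = 0.0048). The MCF10A-TRAM2 samples lay between 3.31 and 6.72 CPM, with sample B lowest, and did not reach down to MCF10A-YAP5SA.

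HOXA3, needed for the thymus and parathyroid, was at 21.1 and 22.0 CPM in control, 19.5 to 23.7 CPM in MCF10A-TRAM2 and 12.0 and 14 CPM in MCF10A-YAP5SA (log2 fold change -0.72 against control, SE 0.12, edgeR adjusted p = 0.00012). HOXA5, needed for development of the lung, was at 10.6 and 11.7 CPM in control and 5.80 and 5.50 CPM in MCF10A-YAP5SA (-0.98, SE 0.15, edgeR adjusted p = 8.5e-05). HOXA7, known as a repressor of differentiation genes in keratinocytes, was at 13.4 and 14.7 CPM in control and 6.64 and 7.59 CPM in MCF10A-YAP5SA (-0.98, SE 0.13, edgeR adjusted p = 1.8e-05). For each of these 3 genes the lowest control sample lay above the highest MCF10A-YAP5SA sample. The MCF10A-TRAM2 samples of HOXA5 (8.02 to 9.87 CPM) and of HOXA7 (9.98 to 11.0 CPM) fell in the gap between the other groups and overlapped neither.

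HOXA10, a gene of the uterus and the posterior body, fell about as far as HOXA2. It was at 8.83 and 8.73 CPM in control, 8.42 to 10.1 CPM in MCF10A-TRAM2 and 4.46 and 3.48 CPM in MCF10A-YAP5SA (-1.15, SE 0.17, edgeR adjusted p = 5.8e-05). HOXA4, HOXA9 and HOXA11 were not called. HOXA4 was at 5.26 and 4.90 CPM in control and 3.03 and 4.10 CPM in MCF10A-YAP5SA (-0.51, SE 0.22, edgeR adjusted p = 0.074). HOXA9, the mammary and haematopoietic regulator, was at 7.69 and 7.92 CPM in control and at 7.90 and 5.42 CPM in MCF10A-YAP5SA, so its groups overlapped (-0.23, SE 0.18, edgeR adjusted p = 0.31). HOXA11 had 40 counts over the control samples and 13 over the MCF10A-YAP5SA samples (-0.90, SE 0.46, edgeR adjusted p = 0.12).

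HOXB2, a hindbrain gene like HOXA2, led the rise of the HOXB cluster. It was at 2.61 and 1.72 CPM in control, at 2.01, 3.80, 3.27 and 2.27 CPM in the 4 MCF10A-TRAM2 samples, and at 11.8 and 14.5 CPM in MCF10A-YAP5SA. Both MCF10A-YAP5SA samples stood above all 6 others. The log2 fold change against control was 2.58 (SE 0.27, edgeR adjusted p = 2.9e-06), a 5.99-fold rise. HOXB9, which acts redundantly with its paralogues in the mammary gland, was at 1.33 and 0.862 CPM in control and 4.04 and 3.95 CPM in MCF10A-YAP5SA (1.85, SE 0.32, edgeR adjusted p = 0.00022). HOXB6 was at 0.503 and 1.19 CPM in control and 1.85 and 2.48 CPM in MCF10A-YAP5SA (1.38, SE 0.43, edgeR adjusted p = 0.016). HOXB6 kept its direction but missed the threshold in 5 of 18 alternatives, among them without control sample 1 (0.87) and without MCF10A-YAP5SA B (1.15).

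HOXB7, often overexpressed in breast carcinoma, had no count in the control libraries, 7 counts over the 4 MCF10A-TRAM2 samples and 25 over the 2 MCF10A-YAP5SA samples. Its level in MCF10A-YAP5SA was 1.09 and 0.929 CPM, at least 13.6-fold higher than a control level of 3 counts over the group would be (edgeR adjusted p = 0.0001). HOXB4, known for the expansion of blood stem cells, had 0 counts in every control and MCF10A-TRAM2 library and 16 counts in MCF10A-YAP5SA (0.589 and 0.697 CPM), at least 8.69-fold higher than control by the same rule. It lay under the filter, and a fit without the filter called it (edgeR adjusted p = 0.0007). HOXB8 had 0 counts in control, 2 in MCF10A-TRAM2 and 5 in MCF10A-YAP5SA, and was not called in that fit. HOXB5 had 1 count in all, in MCF10A-YAP5SA B.

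HOXB3 stood apart from its neighbours. It was at 8.38 and 6.73 CPM in control, 6.49 to 7.51 CPM in MCF10A-TRAM2 and 8.41 and 6.19 CPM in MCF10A-YAP5SA, and the 3 groups overlapped (log2 fold change against control -0.06, 95% interval -0.43 to 0.32, edgeR adjusted p = 0.81). In control HOXB3 held most of the HOXB counts, while in MCF10A-YAP5SA HOXB2 was the higher of the 2 on the CPM scale.

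In the HOXC cluster the genes numbered 4, 6, 8 and 9 rose and those numbered 11 and 13 did not pass the test. HOXC8, which specifies motor neurons at forelimb level, was at 6.96 and 7.43 CPM in control, 5.11 to 6.60 CPM in MCF10A-TRAM2 and 15.7 and 14.3 CPM in MCF10A-YAP5SA (1.06, SE 0.14, edgeR adjusted p = 1.9e-05). HOXC6 was at 4.12 and 4.36 CPM in control, 3.81 to 5.21 CPM in MCF10A-TRAM2 and 8.24 and 9.68 CPM in MCF10A-YAP5SA (1.08, SE 0.18, edgeR adjusted p = 0.00017). HOXC9, a thoracic motor neuron regulator, was at 22.6 and 21.5 CPM in control, 18.5 to 23.3 CPM in MCF10A-TRAM2 and 33.6 and 32.0 CPM in MCF10A-YAP5SA (0.57, SE 0.10, edgeR adjusted p = 0.00024). For these 3 genes both MCF10A-YAP5SA samples exceeded every other sample. With library totals in place of the scaling factors, HOXC9 was at 0.49 and fell just under the fold threshold.

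HOXC4 was counted sparsely, with 4 counts over the control samples, 19 over MCF10A-TRAM2 and 30 over MCF10A-YAP5SA. The ratio of MCF10A-YAP5SA to control was 12.2, with a 95% counting interval of 4.31 to 47.7 (edgeR log2 fold change 3.51, SE 0.76, adjusted p = 0.0014). HOXC5 had 21, 24 and 20 counts in the same order and was not called (0.62, SE 0.50, edgeR adjusted p = 0.34). HOXC11 was at 4.30 and 5.17 CPM in control and 4.88 and 3.87 CPM in MCF10A-YAP5SA (-0.11, 95% interval -0.57 to 0.34). HOXC13, a regulator of hair keratins, was at 11.7 and 11.0 CPM in control and 9.33 and 9.21 CPM in MCF10A-YAP5SA (-0.29, SE 0.14, edgeR adjusted p = 0.10).

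**Figure D3:**
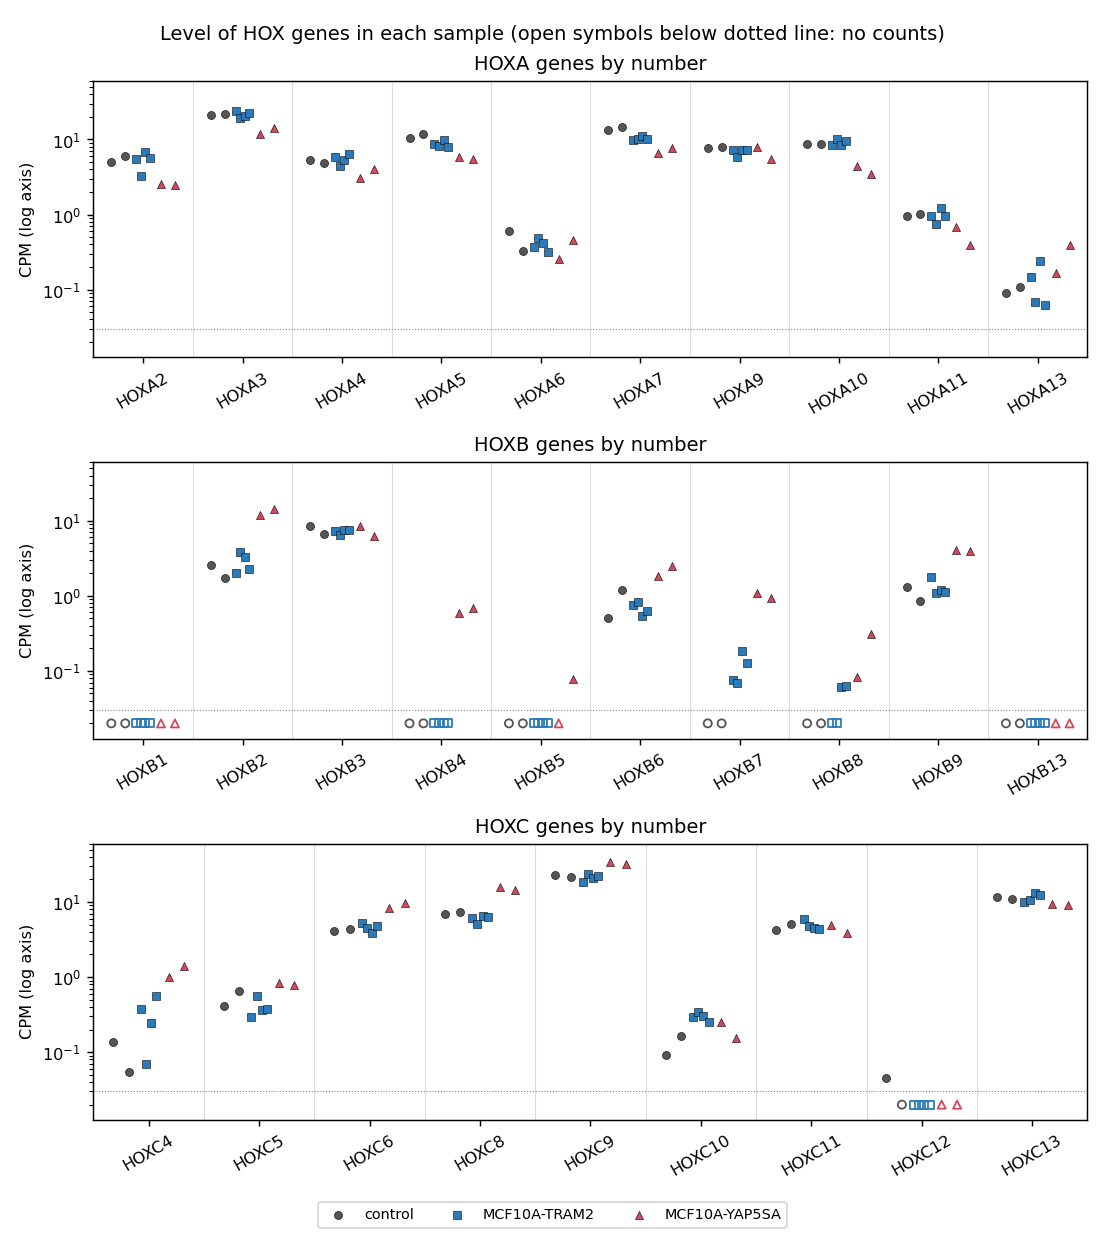
Level of HOXA, HOXB and HOXC genes in CPM on a log axis, by sample, in control (circles, n = 2), MCF10A-TRAM2 (squares, n = 4) and MCF10A-YAP5SA (triangles, n = 2), ordered by gene number, with open symbols under the dotted line for samples with no counts. The triangles lie under the circles for HOXA2 to HOXA5, HOXA7 and HOXA10 and above them for HOXB2, HOXB4, HOXB6, HOXB7, HOXB9 and HOXC4 to HOXC9.

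Genes that share a number are paralogues in different clusters, and their summed level shows whether opposite changes cancelled. In group 2 HOXA2 fell and HOXB2 rose, and the sum went from 7.70 ± 0.011 CPM in control to 15.6 ± 1.9 in MCF10A-YAP5SA, a ratio of 2.03. In group 7 HOXA7 fell and HOXB7 rose from 0, and the sum followed HOXA7 (14.1 to 8.13 CPM, ratio 0.578). In group 4 the values of HOXA4, HOXB4 and HOXC4 offset each other and the sum stood at 5.18 ± 0.31 and 5.41 ± 1.1 CPM. The sums of groups 6, 8 and 9 were higher in MCF10A-YAP5SA (ratios 2.07, 2.12 and 1.40), and those of groups 3, 5 and 10 were lower (0.698, 0.557 and 0.469). Groups 11 and 13 were at ratios of 0.856 and 0.834. Group 12 had 1 count in all libraries together, from HOXC12 in control.

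Of the remaining untested genes, HOXA6 had 19 counts in control, 24 in MCF10A-TRAM2 and 9 in MCF10A-YAP5SA. HOXA13, which patterns the digits and the genital tract, had 4, 8 and 7 counts, and HOXC10 had 5, 18 and 5. The counting intervals of all of these ratios included 1.

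In MCF10A-TRAM2 against control 0 of the 21 HOX genes were called by edgeR's quasi-likelihood test, where 0.0571% of all tested genes were called (0.0317% higher, 0.0254% lower). DESeq2 also called 0, and 3 HOX genes had an unadjusted p under 0.05. Those were HOXA7 (log2 fold change -0.45, SE 0.10, edgeR adjusted p = 0.096), HOXA5 (-0.35, SE 0.12, edgeR adjusted p = 0.24) and HOXB7 (7 counts against 0, at least 1.56-fold higher, edgeR adjusted p = 0.26). For 5 of the 21, HOXA5, HOXA7, HOXA9, HOXB7 and HOXC8, the samples of the 2 groups did not overlap, where 22.7% of all tested genes did not overlap. TRAM2 itself, 14.9-fold higher than in control, was not called in this comparison (edgeR adjusted p = 0.072). The median log2 fold change was -0.06 over the HOXA genes, 0.23 over the HOXB genes and 0.03 over the HOXC genes, beside 0.00 over all genes tested, and the HOXB value is again the same with HOXB7 at its bound. HOXA2 (-0.06), HOXA3 (0.00), HOXA4 (0.12), HOXA9 (-0.18), HOXA10 (0.06) and HOXA11 (-0.02) lay near 0. So did HOXB3 (-0.07), HOXC6 (0.11), HOXC8 (-0.25), HOXC9 (-0.05), HOXC11 (0.05) and HOXC13 (0.03). The values of HOXB2 (0.38, SE 0.27), HOXB6 (-0.28, SE 0.41), HOXB9 (0.23, SE 0.30), HOXC4 (1.6, SE 0.80) and HOXC5 (-0.39, SE 0.45) had wider errors. For the best-counted genes the interval is narrow: HOXA3 lay within -0.20 and 0.19 and HOXC9 within -0.24 and 0.13 on the log2 scale at 95% confidence.

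The groups with a transgene were also compared with each other, without the control samples. In MCF10A-YAP5SA against MCF10A-TRAM2 15 HOX genes were called, 9 higher and 6 lower, where 29.4% of all tested genes were called (14.9% higher, 14.6% lower). Without the 3 genes that passed the filter only through MCF10A-YAP5SA, 13 of 18 were called, 7 higher and 6 lower. Samples of the 2 groups did not overlap for 18 of the 21 genes, where 61.9% of all tested genes did not overlap. Among the higher genes were HOXB2 (2.20), HOXB6 (1.66), HOXB7 (3.04), HOXB9 (1.61), HOXC4 (1.91), HOXC6 (0.97), HOXC8 (1.31) and HOXC9 (0.62). The lower genes were HOXA2 (-1.08), HOXA3 (-0.72), HOXA4 (-0.63), HOXA5 (-0.62), HOXA7 (-0.53) and HOXA10 (-1.21). HOXA4 (SE 0.20, edgeR adjusted p = 0.017) is the gene called here and not against control, and it missed the threshold in 4 of 18 alternatives. Without MCF10A-YAP5SA A neither HOXA4 (-0.42) nor HOXA7 (-0.43) was called, and without MCF10A-YAP5SA B HOXC4 (1.66) was not. HOXA9 (-0.05), HOXA11 (-0.88), HOXB3 (0.01), HOXC5 (1.00), HOXC11 (-0.16) and HOXC13 (-0.32) were not called. Both comparisons of MCF10A-YAP5SA share its samples and are not independent of each other.

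Libraries of the second run held no MCF10A-YAP5SA sample, so run and group could be separated only within the first run. With control A and B, MCF10A-TRAM2 A and B and MCF10A-YAP5SA A and B alone, 13 of 20 HOX genes tested were called in MCF10A-YAP5SA against control, 8 higher and 5 lower. Of all 15111 genes tested in these libraries, 4402 were called, 2340 higher and 2062 lower. In the same libraries HOXB2 was at 2.55, HOXC8 at 1.15, HOXC9 at 0.72, HOXA7 at -1.05 and HOXA10 at -1.07 on the log2 scale. In MCF10A-TRAM2 against control 0 HOX genes were called within the first run and 0 within the second. Of all genes tested, 25 of 15111 were called in the first run and 97 of 14588 in the second.

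Many HOX loci also make noncoding transcripts that share exons with the coding ones, and a gene total can hide which of them changed. Salmon divides reads among such transcripts by estimation, so the split within a gene is less certain than its sum. HOXC9 is the clearest case. In control 67.0% of its counts were assigned to HOXC9-202, a 581-base transcript typed as lncRNA, and 29.6% to the coding HOXC9-201. The level of HOXC9-202 was 20.1 ± 1.2 TPM in control and 27.7 ± 0.97 TPM in MCF10A-YAP5SA, and that of HOXC9-201 was 2.39 ± 0.41 and 3.82 ± 0.54 TPM (SD, n = 2 each). Both transcripts were higher in MCF10A-YAP5SA by more than these SDs, and the coding share of the gene was 33.0% in control and 35.7% in MCF10A-YAP5SA.

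HOXA7 also had a short lncRNA-typed transcript, which led in TPM but held 45.0% of the counts in control. Its 472-base lncRNA-typed transcript HOXA7-203 was at 12.5 ± 0.41 TPM in control, 8.80 ± 0.86 TPM in MCF10A-TRAM2 and 6.26 ± 1.4 TPM in MCF10A-YAP5SA, and the coding HOXA7-201 was at 1.95 ± 0.13, 1.49 ± 0.11 and 0.967 ± 0.0039 TPM. The coding transcript took 55.0%, 56.9% and 54.9% of the counts in these groups, so both forms were lower together. In HOXB2 the coding HOXB2-201 went from 0.644 ± 0.24 to 3.30 ± 0.30 TPM and the lncRNA-typed HOXB2-203 from 0.260 ± 0.058 to 3.27 ± 1.1 TPM between control and MCF10A-YAP5SA. The coding share of HOXB2 counts was 87.7% and 75.5%. The HOXB7 counts fell mostly on 2 lncRNA-typed transcripts, with 10.2% of them in the coding transcript in MCF10A-YAP5SA. With protein-coding transcripts alone HOXB7 was no longer tested, and 12 of 20 HOX genes tested were called, 7 higher and 5 lower. Of all 12247 genes tested in this way, 3661 were called, 1895 higher and 1766 lower.

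The make-up of HOXA3 differed between the groups. Its 503-base coding transcript HOXA3-205 had 45.1 and 51.9 counts in the control samples, 25.2, 23.9, 56.0 and 43.8 in the 4 MCF10A-TRAM2 samples, and 3.4 and 2.3 in MCF10A-YAP5SA. Its share of HOXA3 counts was 9.78% and 12.7% in the control samples and 1.28% and 2.38% in MCF10A-YAP5SA. The long HOXA3-201 kept 68.8% of the counts in control and 62.9% in MCF10A-YAP5SA, with samples from 48.3% to 81.3% in the latter. HOXA3-206, of 581 bases, had 0 and 16.2 counts in control and 13.8 and 23.2 in MCF10A-YAP5SA. No test was made on single transcripts.

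Other genes also had more than 1 transcript. The coding HOXA5-201 took 92.5% of HOXA5 counts in control and 94.8% in MCF10A-YAP5SA. In HOXA9 the coding transcripts took 56.2% and 58.2%, and the coding HOXA9-201 had 40.4 counts in MCF10A-YAP5SA A and 3.3 in B. In HOXC6 the coding HOXC6-201 took 89.8% and 89.0%. The lncRNA-typed HOXA10-205 had 0 and 8.9 counts in control, 14.8, 24, 15.1 and 32.3 in the 4 MCF10A-TRAM2 samples and 0 in both MCF10A-YAP5SA samples, a feature singled out after its values were seen.

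The DNA upstream of transcript starts is shown for HOXA7, HOXA3 and HOXA2, genes of the HOXA cluster on the minus strand of chromosome 7. Summed over transcripts, each of these genes was called lower in MCF10A-YAP5SA than in control. The DNA is given as the 250 bases before a RefSeq start on GRCh38.p14, written 5′ to 3′ along the gene. RefSeq lists 27 such windows for 20 of the 39 HOX genes. The HOXC9, HOXB2, HOXC6 and HOXB7 starts, which the rule for printing also named, are not among them. No window was matched to the start of HOXA3-201, which held 68.8% of HOXA3 counts in control. HOXA2 was added after its values were seen. Capitals mark matches to a PBX-HOX motif (TGATTNAT, either strand) or to the TEAD motif (GGAATG, either strand), the site of the factors through which YAP reaches DNA.
HOXA7, start of HOXA7-201, chr7:27156676-27156925, minus strand: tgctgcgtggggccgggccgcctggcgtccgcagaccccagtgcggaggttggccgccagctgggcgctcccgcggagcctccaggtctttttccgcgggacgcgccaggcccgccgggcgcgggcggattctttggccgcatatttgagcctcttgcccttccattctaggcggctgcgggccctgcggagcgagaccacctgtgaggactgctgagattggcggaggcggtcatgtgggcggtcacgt
HOXA3, start of HOXA3-205, chr7:27113843-27114092, minus strand: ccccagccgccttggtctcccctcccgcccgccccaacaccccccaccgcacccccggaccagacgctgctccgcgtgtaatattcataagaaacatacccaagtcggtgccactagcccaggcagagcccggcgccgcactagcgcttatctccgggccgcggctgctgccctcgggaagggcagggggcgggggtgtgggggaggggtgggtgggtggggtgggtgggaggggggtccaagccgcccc
HOXA3, start of HOXA3-202, chr7:27119596-27119845, minus strand: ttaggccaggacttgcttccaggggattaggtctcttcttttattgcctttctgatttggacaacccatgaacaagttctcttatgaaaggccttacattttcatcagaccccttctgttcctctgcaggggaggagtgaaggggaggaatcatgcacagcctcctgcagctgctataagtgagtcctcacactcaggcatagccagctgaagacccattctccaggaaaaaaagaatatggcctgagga
HOXA2, start of HOXA2-201, chr7:27102684-27102933, minus strand: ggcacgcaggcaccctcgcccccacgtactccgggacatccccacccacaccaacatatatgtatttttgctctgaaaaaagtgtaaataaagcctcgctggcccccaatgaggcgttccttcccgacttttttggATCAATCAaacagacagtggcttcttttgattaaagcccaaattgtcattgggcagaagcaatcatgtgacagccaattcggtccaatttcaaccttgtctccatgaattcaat

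The windows differ in base composition. That of HOXA7 holds 28 CpG at 70.8% G and C, and that of HOXA3-205 holds 19 CpG at 72.0%, while the HOXA3-202 window holds 0 CpG at 48.0% and the HOXA2 window 8 at 47.2%. The median over the 27 HOX windows was 19 CpG, beside 11 over all 35116 windows. Of the 4 printed, the HOXA2 window has a PBX-HOX match, 114 bases before the start, and none has a TEAD match. Among the HOXA3 windows not printed, that at chr7:27123028-27123277 has a TEAD match 145 bases before its start. The TEAD letters were present in 8 of the 27 HOX windows (29.6%) and in 11.9% of all windows. The PBX-HOX letters were present in 2 of 27 (7.41%) and in 2.48% of all. A match is a description of the letters. The same window is listed under both HOXC4 and HOXC5, has TEAD letters, and so enters the 8 under both genes. A HOXA10 window has a TEAD match 234 bases before its start. HOXD genes, which had no counts, make up 4 of the 8 windows with TEAD letters (HOXD4, HOXD8, HOXD10 and HOXD13).

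The HOX clusters also produce antisense and intergenic RNAs, of which 7 were tested. Strand use in counting is not stated, so reads of a HOX gene and an overlapping antisense RNA cannot be told apart with certainty. HOXB-AS1, beside HOXB2, was at 0.0915 and 0.269 CPM in control and 1.18 and 1.70 CPM in MCF10A-YAP5SA (log2 fold change 2.99, SE 0.61, edgeR adjusted p = 0.00093). It passed the filter only through MCF10A-YAP5SA, so its difference from control was part of why it was tested. HOTAIRM1, a noncoding RNA of the HOXA cluster, was at 4.53 and 4.36 CPM in control and 5.72 and 8.59 CPM in MCF10A-YAP5SA (0.69, SE 0.21, edgeR adjusted p = 0.013). HOXA10-AS was at 6.04 and 5.87 CPM in control and 3.11 and 2.01 CPM in MCF10A-YAP5SA (-1.22, SE 0.26, edgeR adjusted p = 0.0013). HOXB-AS1 and HOXA10-AS moved in the direction of HOXB2 and HOXA10. HOTAIR, transcribed from the HOXC cluster and known for its binding to Polycomb proteins, was at 1.65 and 1.56 CPM in control and 0.336 and 0.929 CPM in MCF10A-YAP5SA (-1.31, SE 0.42, edgeR adjusted p = 0.019), against the rise of the HOXC genes. HOXA-AS2, HOXA-AS3 and HOXC13-AS were not called. In MCF10A-TRAM2 0 of the 7 were called.

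Among the PBX, MEIS and PKNOX genes, which encode the DNA-binding partners of HOX proteins, 4 of 8 tested were called in MCF10A-YAP5SA, beside 29.4% of all tested genes. MEIS3 went from 6.73 and 7.27 CPM in control to 20.1 and 21.0 CPM (1.56, SE 0.13, edgeR adjusted p = 1.3e-07). MEIS2 (0.57) and PBX3 (0.54) rose less. The 8 ParaHox and EVX genes, relatives of the HOX family, were not tested, and 6 of them had no counts. Of 38 Polycomb and trithorax genes tested, 4 were higher and 5 lower, beside 15.3% and 14.1% of all tested genes. CBX6 (1.12) and PHC1 (0.94), subunits of Polycomb complexes, rose, while KDM6B (-0.96), which removes the Polycomb mark from histone H3, fell. The median over these 38 genes was -0.02.

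Of 13 retinoic acid genes tested, 2 were higher and 6 were lower in MCF10A-YAP5SA, where 15.3% of all tested genes were higher and 14.1% lower. ALDH1A3, an enzyme that makes retinoic acid, was at 333 and 354 CPM in control, 222 to 239 CPM in MCF10A-TRAM2 and 47.3 and 46.5 CPM in MCF10A-YAP5SA (-2.87, SE 0.060, edgeR adjusted p = 1.4e-13). The receptor gene RARG (-1.12) and the binding protein gene CRABP2 (-2.80) were also lower, and DHRS9, a retinol dehydrogenase gene, was at 5.31 CPM in control and 0.0808 CPM in MCF10A-YAP5SA. All of these named genes went down, and the 2 higher genes are not named here. Summed over the list, the level was 737 to 757 CPM in control and 1350 to 1370 CPM in MCF10A-YAP5SA. The rise of the sum came from a single one of the 2 higher genes, while 6 of the tested genes fell. The sum therefore does not describe the list as a whole. ALDH1A3 was the single gene of all these lists called in MCF10A-TRAM2 against control (-0.59, edgeR adjusted p = 4.8e-05). Of 21 genes that flank the clusters, 6 were higher and 2 lower in MCF10A-YAP5SA, beside the same 15.3% and 14.1%. CBX1 (1.17), near HOXB, TAX1BP1 (0.56), near HOXA, and LNPK (0.69), beside HOXD, rose, and CHN1 (-2.13), farther from HOXD, fell. Also near HOXD, MTX2 (0.03), HNRNPA3 (0.11) and ATF2 (0.45) were not called.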

How the data were processed

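PolyA RNA of MCF10A cells was sequenced. Per the submitters' notes and the study's methods, adapters were removed with cutadapt and the authors quantified transcripts with Salmon, and each deposited table gives an estimated count, a TPM value and an effective length for 226030 transcripts (the sources used here name no version, strand setting or transcriptome build). Estimated counts were summed over all transcripts of a gene and rounded to whole numbers, and TPM values, scaled to transcript length by the authors, were summed and used for levels only.

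HOX genes and gene lists were chosen with earlier results of these data known. Text names the HOX genes tested, and of each other list called members, up to 4 with the smallest adjusted p. Some genes, 1 HOX gene among them, enter counts and sums and are not reported here singly. Control A and C, and B and D, were summed after a chi-square test over genes with whole counts (within 0.001, mean of 50 or more) found no difference within these pairs (p = 0.467 over 1449 genes and p = 0.503 over 1400 genes). Counts of all genes were tested with edgeR 4.0.16 in R 4.3.3 (filterByExpr, TMM scaling, robust quasi-likelihood fit of the 3 groups together, Benjamini-Hochberg adjustment), and CPM uses the TMM factors. DESeq2 1.42.0 was an alternative. On simulated counts for MCF10A-YAP5SA against control over 15768 genes, 71% of 100 genes changed by 1 on the log2 scale and 95% of 100 changed by 2 were called, with 7 false calls. Positions are from GENCODE release 44 mapped to GRCh37, matched by gene ID for all 39 genes, and promoter windows from RefSeq on GRCh38.p14. Depth limits the sparsely counted genes, for which counts, exact intervals and a limit of 3 counts are given, covering counting error only.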

Additional observations from a re-analysis of the deposited data

Results flagged for a closer look

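In the group of 4 MCF10A-TRAM2 samples, 3 of 21 HOX genes examined had 1 sample far from the other 3 by Dixon's criterion, which chance meets in about 1 of 20 groups. HOXA9 was at 5.87 CPM in MCF10A-TRAM2 B and at 7.13 to 7.30 CPM in the others. HOXB3 was at 6.49 CPM in MCF10A-TRAM2 B and at 7.37 to 7.51 CPM in the others. HOXB9 was at 1.79 CPM in MCF10A-TRAM2 A and at 1.10 to 1.21 CPM in the others.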

How the results depend on the processing

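The number of HOX genes called in MCF10A-YAP5SA against control, 14, ranged from 12 to 16 over the alternatives (13 to 15 with a sample left out in turn), that in MCF10A-YAP5SA against MCF10A-TRAM2, 15, from 11 to 16 (13 to 15), and that in MCF10A-TRAM2 against control was 0 in all. The lowest counts came from protein-coding transcripts alone (12) and from an offset for effective length (11). No called gene changed sign. Against control, HOXA4 passed the threshold in 5 alternatives (-0.59 to -0.50), HOXB6 missed it in 5 (0.87 to 1.38), HOXA5 missed it with the length offset (-1.31) and HOXC9 with library totals (0.49). Against MCF10A-TRAM2, HOXA4 missed it in 4 alternatives (-0.63 to -0.42), HOXA7 in 3 (-0.49 to -0.43) and HOXC4 in 2 (1.27 and 1.66), and HOXA5 (-0.87) and HOXB6 (1.85) with the length offset. The cause was not tested. Of values not called, 50 changed sign, between -0.29 and 0.51, with adjusted p of 0.41 or more. HOXA7 in MCF10A-TRAM2 ranged from -0.56 to -0.31 (edgeR or DESeq2 adjusted p from 0.006 to 0.85) and was never called. Replicate letters did not pair the samples, whose same-letter deviations correlated at -0.023 to 0.036. A fit of the 10 libraries with a replicate block called 14 HOX genes against control, 0 in MCF10A-TRAM2 and 14 in MCF10A-YAP5SA against MCF10A-TRAM2. Precision is limited by 2 samples in a group and by few counts for HOXB4, HOXB7, HOXB8, HOXC4 and HOXC5.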
